A study of Mus musculus with 6 samples.

Results

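The regions described here are the SIN3A peaks of mouse embryonic stem cells that lay away from every peak of REST and of SIN3B. They were chosen by measured peak positions: a SIN3A peak was taken when no REST peak and no SIN3B peak had its midpoint less than 400 bp away on the same chromosome. Of the 1314 SIN3A peaks, 22 lay in a crowded stretch of chromosome X and were left out, and 568 of the remaining 1292 met the rule. That is 44.0% of them (exact 95% Clopper-Pearson interval 41.2 to 46.7%). All 6 peak lists together held 14023 peaks. These 568 are called unpartnered SIN3A sites below, where unpartnered refers to REST and SIN3B and not to the RCOR proteins. The other SIN3A peaks were 483 with SIN3B alone, 20 with REST alone and 221 with REST and SIN3B together.

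REST is a zinc finger repressor best known for silencing neuronal genes outside neurons. It works through 2 arms: one binds SIN3A or SIN3B, scaffold proteins that carry histone deacetylases, and the other binds the CoREST family (RCOR1, RCOR2 and RCOR3), which brings histone deacetylases and the histone demethylase LSD1. SIN3 proteins have no sequence-specific DNA binding of their own and are also brought to chromatin by many other factors, so SIN3A binding away from REST is known in other settings.

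All lists came from E14, a line of mouse embryonic stem cells, used between passages 15 and 18, with 1 ChIP-seq library (chromatin immunoprecipitation followed by sequencing) and 1 peak list for each protein. For SIN3A and REST the antibody was raised to the cell's own protein. SIN3B, RCOR1, RCOR2 and RCOR3 were each precipitated with a V5 antibody from a stable E14 line that expressed a low level of a tagged transgene; the SIN3B transgene label spells the tag VG. The SIN3A and SIN3B lists therefore differ in antibody and in cell line as well as in protein, and these cannot be told apart. The lists held 3104 peaks for REST, 5318 for SIN3B, 84 for RCOR1, 459 for RCOR2 and 3744 for RCOR3. Read depth is not given in the sources used here, and with 1 library for each protein no difference below has a replicate check or a test. Intervals cover counting error only, and neighbouring peaks are not independent.

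Each peak carries a score from the authors whose meaning is not stated, so it was used here to rank peaks within a list. Most SIN3A scores, 98.1%, fell within 0.02 of a step of an evenly spaced scale with steps of about 0.73, and the lowest common value was 10.2. Scores of the unpartnered sites ran from 8.01 to 49.54, with quartiles of 10.2, 10.93 and 11.66. SIN3A peaks with SIN3B alone had the same median, 10.93, but an upper quartile of 13.11, and peaks with REST and SIN3B had a median of 13.11. At the lowest common score stood 234 of the 568 unpartnered sites (41.2%, 37.1 to 45.4%), against 31.2% of all 1292 SIN3A peaks. The same level held 29.2% (25.2 to 33.5%) of peaks with SIN3B alone and 11.3% (7.46 to 16.2%) of peaks with both partners. A score of 16 or more was reached by 14 unpartnered sites (2.46%), by 6.63% of peaks with SIN3B alone and by 31.7% of peaks with both. The median of all 1292 SIN3A peaks was also 10.93, so unpartnered sites differed from the list mainly in having more peaks at the lowest common score and fewer at the top.

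Read the other way, the unpartnered share of SIN3A peaks was lower at higher scores from the lowest common score upwards. The 28 peaks under that score went the other way, with 6 unpartnered (21.4%, 8.30 to 41.0%). At the common scores the share was 58.1% (53.1 to 62.9%) of the 403 peaks at 10.2, 54.0% of the 263 at 10.93 and 48.7% of the 152 at 11.66. It was 36.2% of the 116 peaks at 12.39, 33.3% of the 78 at 13.11 and 12.0% (6.70 to 19.3%) of the 117 peaks at 16 or more. Of those 117 strongest peaks, 70 had REST and SIN3B. Among SIN3A peaks without REST the unpartnered share was 62.4% at 10.2, 60.4% at 10.93, 57.4% at 11.66, 46.2% at 12.39, 26 of the 65 peaks at 13.11 and 42.9% of the 42 peaks at 13.84. It was lowest at 14.57, with 21.2% of 33 peaks, and was then 5 of the 20 peaks at 15.3 and 30.4% of the 46 at 16 or more, so it did not fall further at the top. All 8 SIN3A peaks that scored above the strongest unpartnered site had REST and SIN3B.

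**Figure D1:**
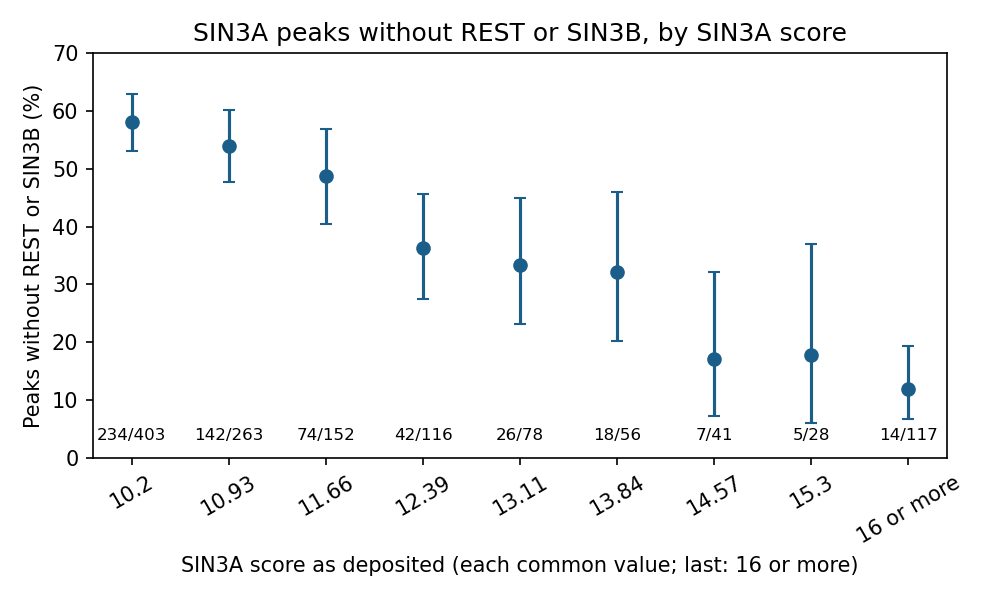
Share of SIN3A peaks without REST or SIN3B (vertical axis, percent) at each common SIN3A score (horizontal axis, last group 16 or more); points are shares, bars are exact 95% binomial intervals, and the fractions give unpartnered peaks over all peaks. The share runs from 58.1% at a score of 10.2 to 12.0% at 16 or more.

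The strongest unpartnered site stood apart from the rest. At chr8:74539991-74540251 (mm8, positions as deposited) SIN3A scored 49.54, which ranked 9 of 1292, over an interval of 260 bp. Its nearest SIN3B peak was 18090 bp away, its nearest RCOR2 peak 11880 bp, its nearest RCOR3 peak 58890 bp and its nearest REST peak 60240 bp. The next site, chr14:6794711-6794751, scored 27.69 in an interval of 40 bp, with SIN3B at 49770 bp and REST at 2280130 bp. The third, chr17:33526511-33526571, scored 26.23 and had a SIN3B peak at 6720 bp that itself scored 10.78, the lowest common value of the SIN3B list. Scores of 23.31 were found at chr7:4518591-4518631, with SIN3B at 38350 bp, and at chr11:102064891-102064931, with SIN3B at 92460 bp. None of these 5 had a peak of any RCOR list less than 400 bp away. Of the 14 sites scoring 16 or more, 2 had SIN3B within 1 kb, 1 had it between 1 and 10 kb, and the other 11 had neither SIN3B nor REST within 10 kb.

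Unpartnered sites were about as narrow as the SIN3A list in general. Their deposited intervals had a median width of 60 bp and ranged from 40 to 460 bp, and 351 of them (61.8%) were 40 or 60 bp wide. All 1292 SIN3A peaks also had a median width of 60 bp, and 60.7% of them were 40 or 60 bp wide. Widths of 100 bp or more made up 31.2% of unpartnered sites, 33.7% of all SIN3A peaks, 40.2% of peaks with SIN3B alone and 24.9% of peaks with both partners. Of the 5 strongest sites, 4 were 40 or 60 bp wide. The 3 widest had scores above the upper quartile of the unpartnered sites. These were chr8:97726931-97727391 (460 bp, score 12.39), chr15:57906531-57906971 (440 bp, 14.57) and chr8:74201511-74201931 (420 bp, 15.3). The next widest did not exceed that quartile: chr8:74304571-74304971 (400 bp) scored 10.2 and chr8:73140871-73141251 (380 bp) scored 11.66.

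Most unpartnered sites were single peaks. Another SIN3A peak lay within 1 kb of 37 of them (6.51%, 4.63 to 8.87%), against 5.19% of all SIN3A peaks, and within 10 kb of 14.3%. For peaks with SIN3B alone these shares were 5.18% and 13.0%. When unpartnered sites were chained at gaps of up to 10 kb they formed 543 runs, of which 519 held 1 site, 23 held 2 and 1 held 3. The run of 3, chr8:72971091-72972191, had scores of 11.66, 9.47 and 11.66 and no peak of any other list within 10 kb. A pair at chr3:84125091-84126311 scored 10.93 at each site. A pair at chr4:125967551-125968211 scored 12.39 and 10.2 and had 2 REST peaks, 1 RCOR3 peak and 1 SIN3B peak within 10 kb.

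Chromosome 8 held 88 of the 568 unpartnered sites (15.5%, 12.6 to 18.7%), against 14.8% of all SIN3A peaks. The share was 17.8% (14.5 to 21.5%) for peaks with SIN3B alone and 7.24% (4.19 to 11.5%) for peaks with both partners. Of each other list without the X stretch, chromosome 8 held 8.80% of SIN3B peaks, 12.4% of RCOR2 peaks, 5.32% of REST peaks and 2.47% of RCOR3 peaks. Unpartnered sites numbered 0.695 per Mb there and between 0.130 and 0.424 per Mb on the other 18 autosomes, with 0.213 when these were pooled. Outside the crowded stretch, chromosome X held no SIN3A peak. The unpartnered fraction of SIN3A peaks differed little there: it was 46.1% (38.9 to 53.4%) on chromosome 8 and 43.6% (40.6 to 46.6%) elsewhere. By chromosome that fraction ran from 32.3% on chromosome 2 to 56.4% on chromosome 3.

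**Figure D2:**
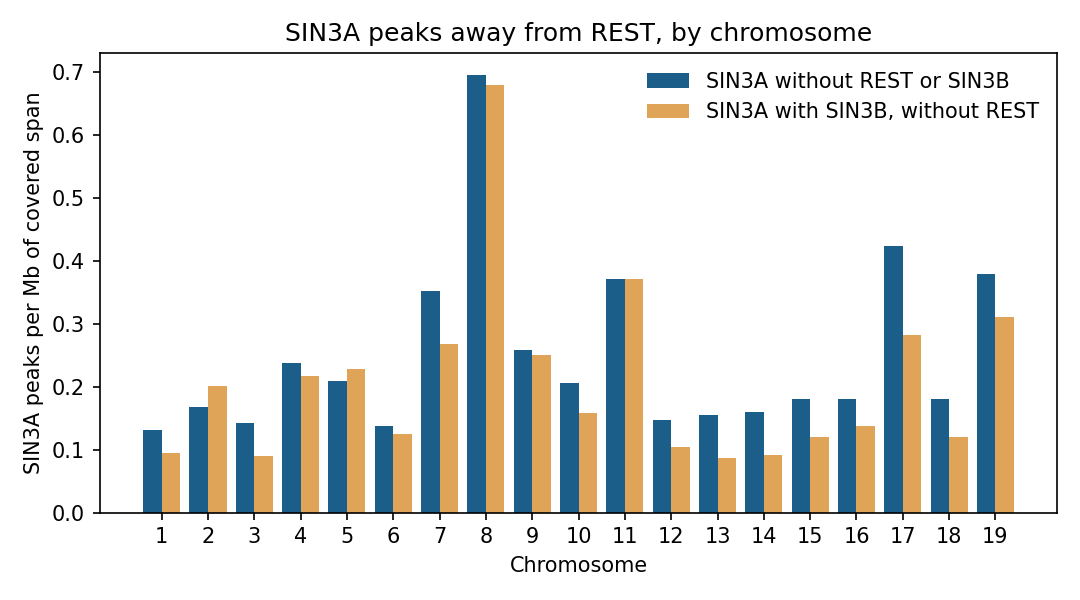
SIN3A peaks per Mb of the span covered by the lists (vertical axis) on each chromosome (horizontal axis), for peaks without REST or SIN3B (blue) and with SIN3B but without REST (orange). Chromosome 8 stands highest for both, at 0.695 and 0.679 per Mb.

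Within chromosome 8 the sites crowded into its middle. Between 70 and 100 Mb lay 65 of the 88 (73.9%, 63.4 to 82.7%), beside 67.0% (59.9 to 73.6%) of all SIN3A peaks on the chromosome, 64.0% of those with SIN3B alone, 63.0% of its RCOR2 peaks, 56.2% of its SIN3B peaks, 45.7% of its RCOR3 peaks and 36.6% of its REST peaks. The interval for the unpartnered sites overlaps that for all SIN3A peaks. The 10 Mb from 70 to 80 Mb alone held 36. With that stretch left out of every list, an alternative chosen after seeing the data, the chromosome 8 share of unpartnered sites was 9.77% (7.39 to 12.6%), beside 10.6% of all SIN3A peaks, 14.3% of peaks with SIN3B alone, 9.46% of RCOR2 peaks, 7.14% of SIN3B peaks and 4.74% of REST peaks. Chained at gaps of up to 100 kb, 42 of the 88 sites fell into 7 runs of 3 or more, against 15 of 480 in 5 such runs elsewhere. SIN3A peaks with SIN3B alone clustered to a like extent over all chromosomes: 25.5% of them were in runs of 2 or more, against 26.6% of unpartnered sites, and their runs of 3 or more numbered 14 against 12. The longest run of unpartnered sites, chr8:74304571-74671191, held 13 unpartnered sites among 18 SIN3A peaks, 16 SIN3B peaks, 4 RCOR2 peaks, 4 RCOR3 peaks, 3 REST peaks and 1 RCOR1 peak, and it contained the strongest site of all. The next, chr8:73368231-73809871, held 11 unpartnered sites among 20 SIN3A and 26 SIN3B peaks. Off chromosome 8 no run held more than 3.

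Unpartnered sites on chromosome 8 lay closer to other peaks of most lists than those elsewhere. Another SIN3A peak lay within 100 kb of 79.5% (69.6 to 87.4%) of them, against 34.2% (29.9 to 38.6%) elsewhere. Over all chromosomes this share was 41.2% of unpartnered sites, 43.7% of peaks with SIN3B alone and 41.7% of all SIN3A peaks. It was not split by chromosome for the other SIN3A classes, so the gap is not shown to be particular to unpartnered sites. The median distance to SIN3B was 15995 bp on chromosome 8 and 46065 bp elsewhere, and the median distance to RCOR2 was 96240 and 1009580 bp. RCOR2 was less than 400 bp away at 3 of 88 and 2 of 480 sites, and within 10 kb of 11.4% and 1.25%. RCOR3 was at 4.55% of them and 5.42% elsewhere, and 35.2% against 42.3% stood at the lowest common SIN3A score.

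Distance to the nearest SIN3B peak had a median of 39250 bp. The median was 16055 bp when partners were defined by overlap of the deposited intervals and 79550 bp with the better-scoring 50% of REST and SIN3B peaks. With all peaks and the 400 bp limit, the distance was 400 to 1000 bp for 48 sites, 1 to 10 kb for 90, 10 to 100 kb for 262 and over 100 kb for 168 (29.6%). REST, whose list is shorter (3104 against 5318 peaks), was farther, with a median of 134930 bp. It lay within 1 kb of 7 sites, at 1 to 10 kb for 33, at 10 to 100 kb for 191 and beyond for 337 (59.3%). SIN3A peaks with SIN3B alone had a like distance to REST, with a median of 144060 bp and 59.8% beyond 100 kb. For 417 unpartnered sites (73.4%, 69.6 to 77.0%) neither SIN3B nor REST had a peak within 10 kb. For 96 (16.9%, 13.9 to 20.2%) no peak of any of the other 5 lists lay within 100 kb. The highest scoring of these most isolated sites were chr12:116065171-116065531 at 16.03, chr12:25297691-25297811 at 15.3, which had another SIN3A peak 370 bp away, and chr8:83910631-83910691, chr9:66774471-66774511 and chr15:57906531-57906971, tied at 14.57. None of the 96 scored above 16.03.

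Peaks were also counted in rings about the sites. SIN3B peaks numbered 73.2 per kb per 1000 sites from 400 bp to 1 kb (50 peaks), 18.5 from 1 to 2 kb and 11.4 from 2 to 5 kb, and then stayed between 9.89 and 10.7 out to 100 kb. The first ring was 6.88 times as dense as the ring from 10 to 20 kb. Distances to SIN3B and REST chose the sites, so the first ring of these lists holds what lay just past the 400 bp limit. Around SIN3A peaks with SIN3B alone, SIN3B peaks numbered 48.2 in the first ring and 11.7 from 10 to 20 kb. Those SIN3A peaks already had SIN3B less than 400 bp away, so their first ring is not a like comparison. SIN3A itself showed the same shape about the unpartnered sites, at 35.2, 12.3 and 3.81 in the first 3 rings. About SIN3A peaks with SIN3B alone it was similar, at 32.7, 6.21 and 4.49. REST stood at 10.3 in the first ring, which rests on 7 peaks, and at 2.67 to 3.87 from 2 kb outwards.

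**Figure D3:**
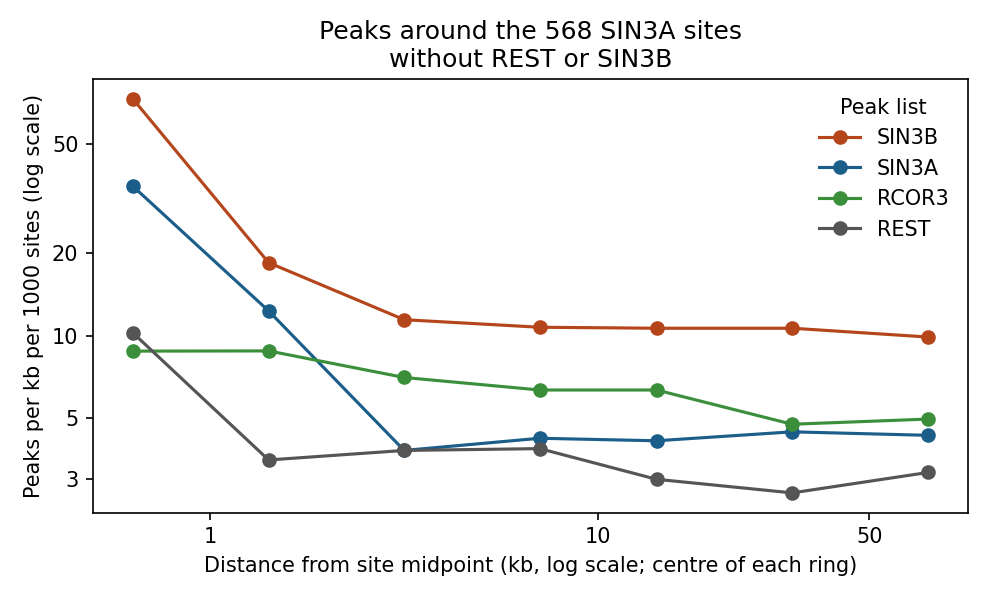
Peaks per kb per 1000 unpartnered SIN3A sites (vertical axis, log scale) in rings around the sites, placed at the centre of each ring (horizontal axis, kb, log scale), for 4 peak lists. SIN3B falls from 73.2 in the ring from 400 bp to 1 kb to a level between 9.89 and 10.7 beyond 5 kb.

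The RCOR lists were not used to choose the sites. RCOR3 had a peak less than 400 bp away at 30 unpartnered sites (5.28%, 3.59 to 7.45%), beside 20.7% of all SIN3A peaks. The share was 7.66% (5.45 to 10.4%) where SIN3A lay with SIN3B alone, and the 2 intervals overlap. It was 8 of 20 with REST alone and 86.9% (81.7 to 91.0%) with REST and SIN3B. RCOR3 peaks were nonetheless denser at the unpartnered sites than around them: those less than 400 bp away came to 66.2 per kb per 1000 sites, against 8.79 from 400 bp to 1 kb and 4.75 to 6.34 beyond 5 kb. The same held where SIN3A lay with SIN3B alone, with 98.6 less than 400 bp away and 5.17 from 400 bp to 1 kb. RCOR2 was at 5 unpartnered sites (0.880%), against 3.87% of all SIN3A peaks, 0.414% with SIN3B alone and 19.0% with both partners. RCOR1 was at none of the 568. That allows a share of up to 0.528% by the limit of 3 counts and up to 0.647% by the exact interval. RCOR1 was likewise at none of the 483 SIN3A peaks with SIN3B alone (up to 0.761% by the exact interval). It was at 2.94% of all SIN3A peaks and 17.2% of those with both. At least 1 RCOR protein was at 32 unpartnered sites (5.63%, 3.89 to 7.86%), against 21% of all SIN3A peaks. For peaks with SIN3B alone the share was 7.87% (5.63 to 10.6%), and the 2 intervals overlap.

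The RCOR3 peaks at unpartnered sites were of middling to low rank. Their median percentile in the RCOR3 list was 35.3 (quartiles 14.9 and 49.3), compared with 49.3 where SIN3A lay with SIN3B alone and 92.5 at peaks with both partners. Their median distance from the SIN3A midpoint was 60 bp, and 19 of the 30 lay within 100 bp. Outside chromosome 8 the highest SIN3A scores among them were at chr7:140792851-140792931 (14.57, with RCOR3 20 bp away scoring 13.38), chr1:74320111-74320151 (13.84, RCOR3 12.55) and chr15:102178731-102178871 (13.11, RCOR3 10.87). Peaks of RCOR2 and RCOR3 coincided at 3 unpartnered sites, of which chr8:73560531-73560571 had the strongest pair. There RCOR3 scored 23.42, at percentile 91.6 of its list, and RCOR2 scored 16.58, at percentile 89.1, while SIN3A was at its lowest common score of 10.2 and the nearest SIN3B peak lay 1630 bp away. The others were chr8:93718371-93718551 and chr2:181588771-181588811.

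How many of the 568 missed a partner narrowly was counted by distance, and their own SIN3A scores were sorted separately. By distance, 52 (9.15%, 6.91 to 11.8%) were near misses: 51 had a SIN3B or REST midpoint between 400 and 1000 bp away, and 1 had another SIN3A peak within 1 kb that was itself partnered. This share depends on the matching rule: it was 16.8% with a limit of 200 bp, 0.580% with 1000 bp, 34.6% when deposited intervals had to overlap and 4.78% with the better-scoring 50% of REST and SIN3B peaks. SIN3B accounted for 48 of the 51, REST for 7, and 4 had both. Of the 483 SIN3A peaks with SIN3B alone, 28 also had a further SIN3B peak between 400 and 1000 bp away. A SIN3B peak at that distance therefore need not be a missed partner. Among all SIN3A peaks without REST, the nearest SIN3B midpoint was under 100 bp away for 303, at 100 to 190 bp for 128, at 200 to 290 bp for 34 and at 300 to 390 bp for 18. Past the limit the counts went on as 13, 14, 9, 6, 2 and 4 per 100 bp, so the limit fell in the tail of this distribution and not in a gap. Of the 48 sites near SIN3B, 28 lay at 400 to 600 bp and 20 at 610 to 1000 bp.

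**Figure D4:**
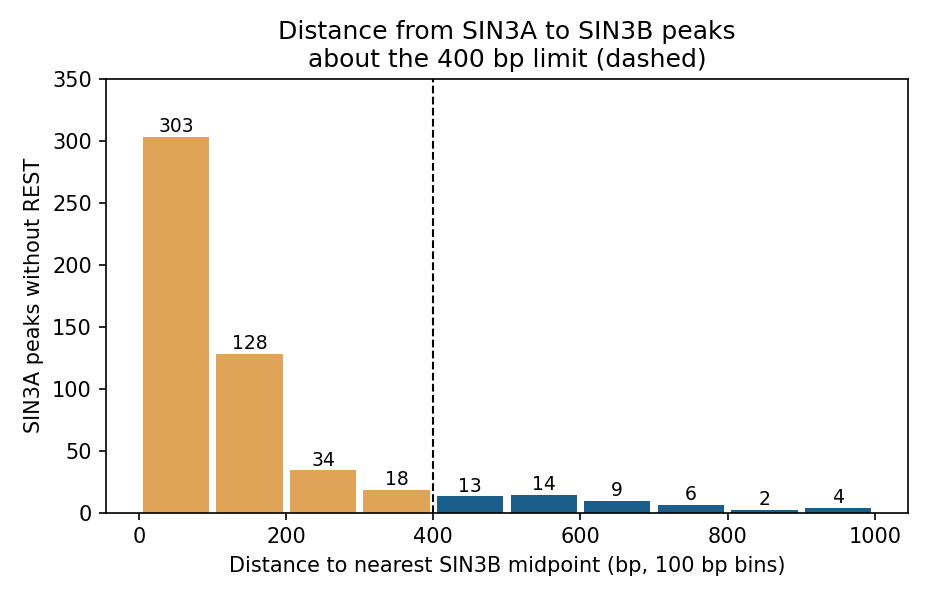
Number of SIN3A peaks without REST (vertical axis) by distance to the nearest SIN3B midpoint in bins of 100 bp (horizontal axis); orange bars are peaks with SIN3B alone, blue bars are unpartnered sites, and the dashed line is the 400 bp limit. Counts fall from 303 to 18 inside the limit and run from 14 to 2 outside it.

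The near misses were separate intervals in the deposited lists. In none of the 48 did the SIN3A interval overlap that of the near SIN3B peak. The smallest gap between the 2 was 280 bp and the median gap 500 bp. The rule made this nearly certain in advance, since midpoints were at least 400 bp apart and unpartnered intervals had a median width of 60 bp. It therefore does not mark the 2 peaks as separate sites. The near SIN3B peaks were of average rank, with a median score of 13.26 at percentile 49.5, and 8 of them had a different SIN3A peak less than 400 bp away. Just outside the limit lay the unpartnered sites chr19:44461651-44461711 at 400 bp (SIN3A 10.93, SIN3B 11.61, with RCOR3 30 bp away), chr11:98254711-98254771 at 410 bp (10.2 and 16.58), chr7:18518691-18518771 at 420 bp (10.2 and 12.43) and chr7:44716551-44716591, also at 420 bp. The 3 peaks just inside it were chr2:38887111-38887251 at 390 bp (11.66 and 18.24), chr4:41653891-41653931 at 380 bp (12.39 and 24.87) and chr15:76304331-76304491 at 360 bp (14.57 and 12.43). The strongest near misses were chr11:74465931-74466271, with SIN3A at 16.76 and SIN3B 470 bp away at 14.92, and chr9:79578671-79578711, with SIN3A at 16.03 and SIN3B 580 bp away, also at 14.92. The next by rank, chr7:44716551-44716591, scored 13.84 with SIN3B at 10.78, tied with other near misses. Another site with that score, chr19:5088671-5088731, was picked out after its values were seen because it lay beside peaks of 4 lists: another SIN3A peak at 640 bp, RCOR3 at 660 bp, SIN3B at 680 bp and REST at 690 bp. A site with the lowest score of all, 8.01 at chr2:119168351-119168391, was also a near miss, with SIN3B 990 bp away.

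Apart from the near misses, 219 sites (38.6%, 34.5 to 42.7%) stood at or under the lowest common SIN3A value. That places a SIN3A peak near the low end of its own list and does not measure a missed SIN3B or REST peak. Of the 219, 171 had no SIN3B or REST peak within 10 kb and 48 had one at 1 to 10 kb. With near misses included, 240 unpartnered sites (42.3%) stood there, against 33.4% of all 1292 SIN3A peaks and 30.6% of those with SIN3B alone. The remaining 297 (52.3%, 48.1 to 56.5%) scored above that value and were not near misses. The group farthest from both limits was 57 sites (10.04%, 7.69 to 12.8%). They ranked at or above percentile 75 of the SIN3A list and had no SIN3B or REST peak within 10 kb. Their median score was 13.84. Distances to SIN3B and REST also chose the sites, so this group has no counterpart among the partnered SIN3A peaks. At any distance from SIN3B or REST, 70 of the 568 unpartnered sites (12.3%, 9.73 to 15.3%) ranked at or above that percentile. The lowest score among these 70 was 13.11. Upper quartiles of score were 11.66 for unpartnered sites, 12.525 for all 1292 SIN3A peaks and 13.11 for those with SIN3B alone. Unpartnered sites were thus less often near the top of the list. The lists hold only peaks that passed the authors' threshold, so SIN3B or REST signal under it at any of these sites was not analysed here.

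The SIN3B threshold could be moved only inwards. SIN3B peaks at or under its lowest common score of 10.78 numbered 1115 (21.0% of that list), and leaving them out turned 52 more SIN3A peaks into unpartnered ones, from 568 to 620. Keeping the best 3458 gave 661, the best 2484 gave 729, the best 1672 gave 809 and the best 532 gave 924. The number kept moving at each step up to the full list. The SIN3B peaks removed first were also those least often at a SIN3A peak without REST: 5.29% of the 1115 weakest, against 14.4% of the 1872 scoring above 14.92. SIN3A peaks with REST were not counted in these shares. Among the 483 SIN3A peaks with SIN3B alone, the best SIN3B partner had a median score of 16.16 at percentile 68.7, and 52 (10.8%) rested on a SIN3B peak at or under 10.78.

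**Figure D5:**
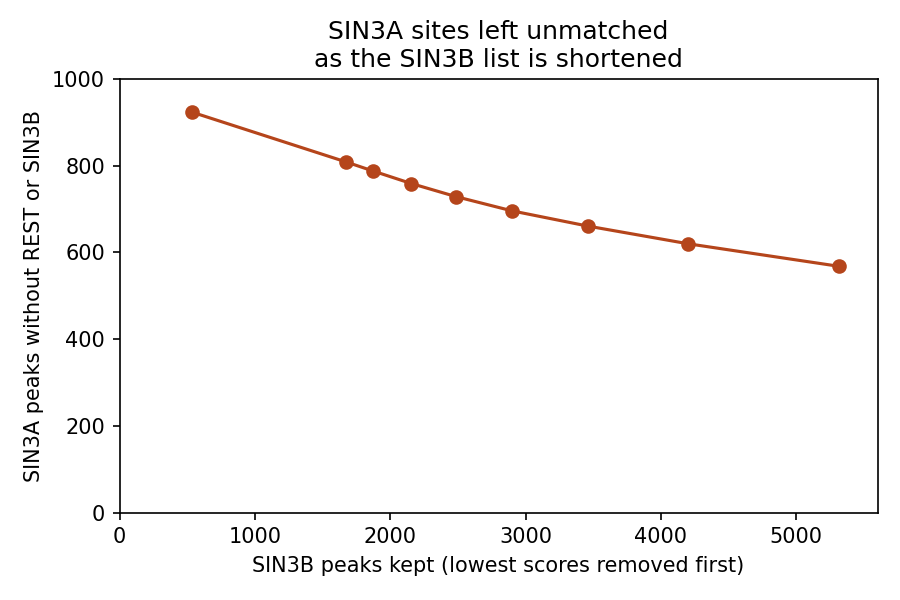
Number of SIN3A peaks without REST or SIN3B (vertical axis) against the number of SIN3B peaks kept when those with the lowest scores are removed first (horizontal axis). The count goes from 568 with all 5318 SIN3B peaks to 924 with the best 532.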

How the data were processed

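The authors deposited 1 peak list per protein with 4 columns: chromosome, start, end and a score whose meaning is not stated. The build, mm8, is taken from the names of the deposited lists. For the aligner, peak caller, control and threshold: not given in the sources used here, nor is sequencing depth. No mm8 annotation or sequence was used, so no genes are named, and positions are printed as deposited.

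Peaks were matched by midpoints at most 399 bp apart; midpoints lie on a 10 bp grid. SIN3A peaks on X between 165300000 and 165400000 were left out. Score percentiles are midranks; because of ties, score values replaced the planned deciles. Shares have exact 95% Clopper-Pearson intervals. A near miss has a partner, or a partnered SIN3A neighbour, within 1000 bp. Each chromosome's span runs over all 6 lists. No tests were made, since each protein has 1 library. Alternatives were other matching distances, deposited intervals, shorter lists, merged neighbours, chromosome 8 left out, and the X stretch kept.

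Regions were named by rule: the strongest, widest, most isolated, those nearest the limit, the strongest near misses, those with RCOR peaks, the fullest runs and the lowest-scoring. Runs at 100 kb and the group scoring 16 or more were added after values were seen. The sites and rules were chosen with earlier results of these data known. Matching was tested on simulated data. Python 3.11.15, pandas 2.3.3, NumPy 2.4.6, SciPy 1.17.1 and matplotlib 3.10.9 were used.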

Additional observations from a re-analysis of the deposited data

How the results depend on the processing

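Of 72 recomputed values over 9 results, 52 stayed within the interval of the reported value and 20 moved outside it. The median SIN3A score percentile of the sites, 43.8, was among these results and stayed in every alternative. Its interval, 33.7 to 54.0, spans all peaks tied at a score of 10.93, so this value could hardly move. The 72 include the alternative without 70 to 80 Mb of chromosome 8, chosen after seeing the data. The unpartnered share of SIN3A peaks, 44.0%, was 48.0% with midpoints within 200 bp, 40.02% within 1000 bp, 61.1% with overlap of the narrow deposited intervals, 38.3% for the better-scoring 50% of SIN3A peaks (857 of 1292, since peaks tied at the median were kept) and 55.1% with the better-scoring 50% of REST and SIN3B, ties likewise kept. In the order 200 bp, 1000 bp, overlap and shorter REST and SIN3B lists, near misses were 16.8%, 0.580%, 34.6% and 4.78%, sites without REST or SIN3B within 10 kb were 67.3%, 80.7%, 52.8% and 83.7%, and the median distance to SIN3B was 32125, 47670, 16055 and 79550 bp. These follow from the construction, since matching decides which sites with close partners are kept. The RCOR3 share was 3.54% by overlap. The share with another SIN3A peak within 1 kb was 0% once neighbours were merged, as the merging requires. The chromosome 8 share stayed between 14.9 and 17.1% in 7 alternatives and was 9.77% without 70 to 80 Mb. No paired analysis was possible because each protein has 1 library.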

Other observations

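The 22 SIN3A peaks left out lay between 165316331 and 165352011 on chromosome X. Of these, 12 had REST and SIN3B less than 400 bp away, 5 SIN3B alone, 3 REST alone and 2 neither. The median of their scores was 14.9 (lowest 8.01, highest 32.78), above the median of 10.93 of the unpartnered sites.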
